A study of Mus musculus with 2 samples.

Results

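The 10 genes described here encode the main carriers that move bile constituents across mouse hepatocytes, 4 for sinusoidal uptake and 6 for canalicular export. They were fixed as a list of gene symbols and were matched by symbol among the 43280 gene symbols counted in each library, where all 10 were found. Poly(A) RNA was sequenced on an Ion Proton system from 1 library of mature hepatocytes (MHs) and 1 library of small hepatocytes (SHs), which the study describes as hepatocyte progenitors resident in the healthy adult liver. Both kinds of cells were freshly isolated by collagenase perfusion from the livers of the same C57BL6 mice, for which the labels give an age of 20 weeks and the methods a younger age, and no transgene or drug is named for either group. MHs were the cells that sedimented in the slow spin, freed of dead cells by Percoll and left unsorted. SHs came from the supernatant of that spin and were sorted by FACS as CD31-, CD45- and EpCAM-negative, ICAM-1-positive cells. The methods name several mice without saying how their RNA was combined, and there was 1 library per group, so no value here has a replicate.

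Hepatocytes are polarised cells. Their sinusoidal membrane faces the blood, and their canalicular membrane faces the bile canaliculus, the narrow lumen between neighbouring hepatocytes that drains into the bile ducts. Bile salts returning from the intestine are taken up at the sinusoidal membrane by the sodium-dependent carrier NTCP (Slc10a1) and by sodium-independent organic anion transporting polypeptides (the Slco genes), and are pumped into the canaliculus by ATP-binding cassette (ABC) transporters, among which the bile salt export pump BSEP (Abcb11) carries the bulk of the bile salts. Other canalicular proteins add phospholipid, sterols and conjugated organic anions to bile, or keep the canalicular membrane stable against the detergent action of bile salts.

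All 10 genes had lower levels in SHs than in MHs, against 44.2% of all genes with at least 200 reads over the libraries, and for all but Abcg5 the gap was larger than the counting error. Slco1b2, which encodes an uptake carrier for bile acids, bilirubin and many drugs, stood at 50.4% of its level in MHs. Slco1a1 and Abcc2 stood at 68.1% and 68.4%, and the other 7 genes at 87.5% to 97.7%. The salt export pump gene Abcb11 and the uptake gene Slc10a1, the main carriers of conjugated bile salts, were at 90.8% and 88.0%. These levels are reads per 1000000 counted on genes (RPM), and the log2 ratios below are of SHs over MHs with 0.5 reads added to each count. Each ratio is given with a 95% Clopper-Pearson interval, computed from how a gene's reads split between the libraries. The interval covers counting error only, since the reads had no molecular identifiers and no library was repeated.

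The sequences before the start sites are shown for the Slco genes with the lowest ratios, for Abcb11 as the export gene with the highest level per kb of exon, and for the stretch shared by Abcg5 and Abcg8. They are RefSeq sequences of mm10 (GRCm38.p6), read 5′ to 3′ on the strand of the gene. The first 3 end at the base before the RefSeq start site, and none of the printed stretches lies in an annotated exon. Capitals mark AGGTCA, the hexamer that many nuclear receptors recognise, on either strand (TGACCT on the other). Slco1b2 lies on the plus strand (chr6:141629268-141629517), Slco1a1 on the minus strand (chr6:141946963-141947212) and Abcb11 on the minus strand (chr2:69342617-69342866).
Slco1b2: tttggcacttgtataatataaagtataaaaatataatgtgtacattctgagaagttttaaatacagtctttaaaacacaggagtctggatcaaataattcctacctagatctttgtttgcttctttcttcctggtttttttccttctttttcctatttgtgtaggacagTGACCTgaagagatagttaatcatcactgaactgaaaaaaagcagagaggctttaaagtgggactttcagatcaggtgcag
Slco1a1: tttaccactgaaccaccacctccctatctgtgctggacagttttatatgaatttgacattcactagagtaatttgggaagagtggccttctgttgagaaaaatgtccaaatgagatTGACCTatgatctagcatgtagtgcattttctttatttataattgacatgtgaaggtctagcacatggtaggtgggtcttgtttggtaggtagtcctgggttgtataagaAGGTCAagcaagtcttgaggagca
Abcb11: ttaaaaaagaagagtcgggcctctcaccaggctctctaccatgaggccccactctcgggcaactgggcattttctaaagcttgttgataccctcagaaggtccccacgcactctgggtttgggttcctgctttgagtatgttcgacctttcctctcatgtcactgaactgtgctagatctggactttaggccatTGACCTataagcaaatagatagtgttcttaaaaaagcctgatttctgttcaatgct
Abcg5 and Abcg8 are transcribed away from each other, and only 109 bases separate their RefSeq start sites, shown on the plus strand (chr17:84683012-84683120), in which AGGTCA does not occur.
Abcg5-Abcg8: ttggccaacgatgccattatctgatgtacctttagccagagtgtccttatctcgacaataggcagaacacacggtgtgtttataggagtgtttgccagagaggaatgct

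RefSeq windows of 250 bases before the start were at hand for 9 of the 10 genes, all but Atp8b1, with 11 windows in all because Slc10a1 and Abcg8 each have a further annotated start. That of Abcg8 is its outermost start, and that of Slc10a1 lies inside the gene. AGGTCA occurred in 5 of the 11 windows, those of Slco1b2, Slco1a1, Slc10a1 (its inner start), Abcb11 and Abcc2, and in 14.0% of the 32851 windows of all genes. The matches began 81 bases before the start in Slco1b2, 24 and 134 bases before it in Slco1a1 and 56 bases before it in Abcb11. The Abcc2 match, 49 bases before the RefSeq start, falls in an exon of the GENCODE annotation, whose start lies further upstream, so that window is not printed. TATAAA occurred in 5 of the 11 windows and in 12.4% of all windows, and the Abcg5 and Abcg8 windows hold the same match in the stretch between them. GGGCGG, the GC box, occurred in 1 window, that of Abcb4, and in 32.7% of all windows. These motifs were searched on both strands, and no match overlapped another. A match describes the letters of the window and is no measured binding site.

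The uptake genes were examined first. Slco1b2 (chromosome 6, 141629518 to 141686646, mm10) was covered by 10759 reads from MHs and 13519 from SHs, which were sequenced more deeply. Scaled, this was 634 and 319 RPM and gave a log2 ratio of -0.99 (95% interval -1.03 to -0.95). Of 9608 genes whose reads summed to at least 200, 79 had a lower ratio, which is 0.822% of them.
Slco1a1 (chromosome 6, 141907282 to 141946962), which encodes a carrier of organic anions including conjugated steroids and bile acids, had 5077 reads from MHs and 8621 from SHs. The level was 299 RPM for MHs against 204 for SHs, log2 ratio -0.55 (-0.61 to -0.50). It was lower in SHs by less than Slco1b2. The difference between both log2 ratios, Slco1b2 less Slco1a1, was -0.43, with a 95% Woolf interval of -0.50 to -0.37 for counting error.
Slco1a4 (chromosome 6, 141805440 to 141856199), which encodes a related carrier of bile acids and cardiac glycosides, had the lowest level per kb of annotated exon of the 10 genes. It had 684 reads from MHs and 1493 from SHs, or 40.3 and 35.2 RPM, with log2 ratio -0.19 (-0.32 to -0.06). The log2 ratio of Slco1a1 lay below that of Slco1a4 by a difference of -0.36 (-0.50 to -0.22).
Slc10a1 (chromosome 12, 80953183 to 80968705) had 7204 reads from MHs and 15808 from SHs. Its level was 424 RPM for MHs against 373 for SHs, log2 ratio -0.19 (-0.23 to -0.14). For each read of Slc10a1 there were 1.49 of Slco1b2 among MHs and 0.855 among SHs, and their log2 ratios differed by -0.80 (-0.86 to -0.75).

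The 3 Slco members are neighbours on chromosome 6, together with Slco1c1, Slco1a6 and Slco1a5. The ratio did not follow the position, since Slco1a4, which lies between Slco1b2 and Slco1a1, had the ratio nearest to 0 of the 3. The other Slco1 genes of the stretch had few reads. Slco1a5 had 16 reads from MHs and 21 from SHs, Slco1a6 had 5 and 6, and Slco1c1 had 2 and 9, and all 3 intervals of their ratios included 0. Reads that fit several Slco genes could have been split between them. Of the 50-base words in annotated transcripts, 1.64% for Slco1a1 and 1.61% for Slco1a4 also occurred in transcripts of another gene. Those genes were mostly each other and Slco1a5, and for Slco1b2 the share was 0%. Only exact matches were counted, whereas the alignment described in the methods allowed mismatches. The words therefore cannot show how many reads fit several genes. The 3 Slco members together took 16520 reads from MHs and 23633 from SHs, a log2 ratio of -0.80 (-0.83 to -0.77) that does not depend on a split among them.

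**Figure D1:**
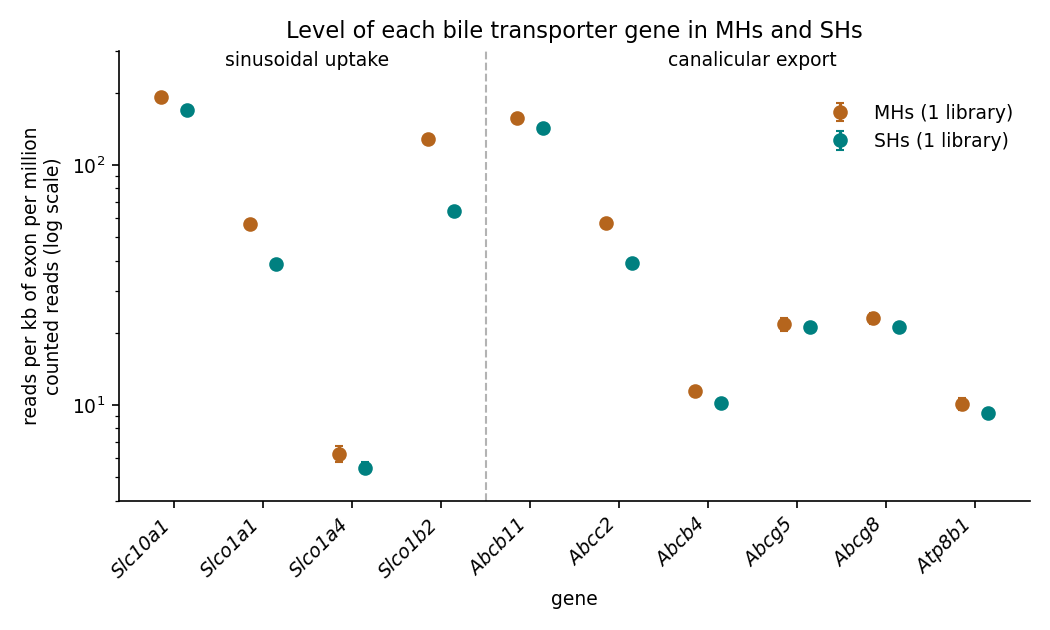
Level of each of the 10 genes in reads per kb of exon per 1000000 counted reads (vertical axis, log scale) in the library of MHs and the library of SHs, with 95% counting intervals that are mostly smaller than the points. Slc10a1 was highest in both libraries, at 193 and 170, and Slco1b2 shows the widest gap, 129 in MHs and 64.8 in SHs.

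Levels of different genes can be compared only per length, so reads were also divided by the kilobases of annotated exon (RPKM, with counted reads as the total). In MHs the order was Slc10a1 with 193 RPKM, Abcb11 with 158, Slco1b2 with 129, Abcc2 with 57.2, Slco1a1 with 56.7, Abcg8 with 23.0, Abcg5 with 21.7, Abcb4 with 11.4, Atp8b1 with 10.1 and Slco1a4 with 6.28. The counting intervals of Abcc2 and Slco1a1 overlapped, as did those of Abcg8 and Abcg5. In SHs the same order held, from 170 RPKM for Slc10a1 and 143 for Abcb11 down to 5.50 for Slco1a4, except that Abcg5 and Abcg8 changed places at 21.22 and 21.17. Their intervals and those of Abcc2 and Slco1a1 overlapped again. Much of this order depends on the length used. By the longest transcript in place of all exons, Slc10a1 stayed first in both libraries. Slco1b2 passed Abcb11 in MHs, with 192 against 162 RPKM, but not in SHs, with 96.5 against 147. Slco1a1 passed Abcc2 in both, with 76.6 against 60.8 RPKM in MHs and 52.1 against 41.6 in SHs. Abcb4, whose exons are much longer than its longest transcript, stood above Abcg5 and Abcg8 in MHs, at 26.3 against 25.1 and 23.5 RPKM, and above Abcg8 only in SHs, at 23.4 against 24.5 and 21.6. Atp8b1 was then lowest in MHs, with 10.1 RPKM against 10.5 for Slco1a4, and Slco1a4 was lowest in SHs, with 9.22 against 9.30.
The makeup of the uptake carriers differed between the libraries. Per length, Slc10a1 made up 50.2% of the summed level of the 4 uptake genes in MHs and 60.9% in SHs, while Slco1b2 made up 33.4% and 23.2%. The shares of Slco1a1, 14.7% and 13.8%, and of Slco1a4, 1.63% and 1.97%, were closer to each other.

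**Figure D2:**
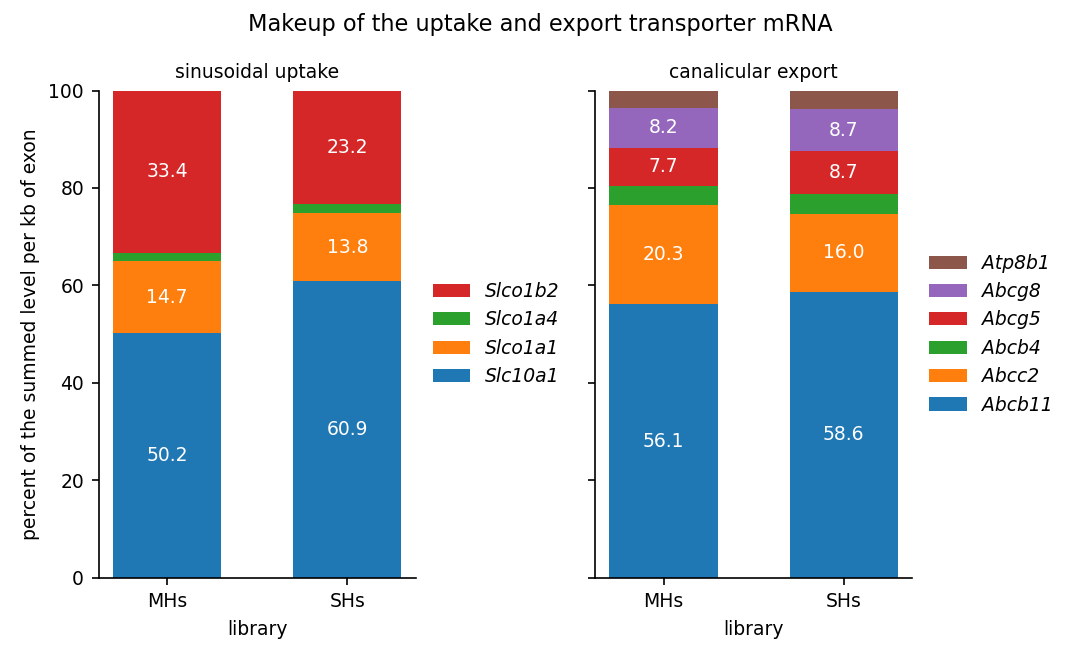
Makeup of the summed level per kb of exon of the 4 uptake genes (left) and the 6 export genes (right), in percent (vertical axis), in the library of MHs and the library of SHs. Slco1b2 takes 33.4% of the uptake bar in MHs and 23.2% in SHs, and Abcc2 takes 20.3% and 16.0% of the export bar.

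Apart from Abcc2, the export genes differed less between SHs and MHs than Slco1b2 and Slco1a1 did. Their log2 ratios, -0.17 to -0.03, lay close to those of the uptake genes Slc10a1 and Slco1a4, both -0.19. Abcb11 (chromosome 2, 69238282 to 69342616) had 13787 reads from MHs and 31214 from SHs. These were 812 and 737 RPM, with log2 ratio -0.14 (-0.17 to -0.11). The ratios of Abcb11 and Slc10a1, the export and uptake routes of bile salts, differed by 0.05, with a Woolf interval of -0.00 to 0.09 that just included 0.
Abcc2 (chromosome 19, 43782192 to 43840740) encodes MRP2, which exports conjugated bilirubin and glutathione conjugates. It had 8283 reads from MHs and 14141 from SHs. The level was 488 RPM for MHs against 334 for SHs, log2 ratio -0.55 (-0.59 to -0.51), and 2.46% of the genes with at least 200 reads had a lower ratio. The ratio of Abcc2 lay below that of Abcb11 by a difference of -0.41 (-0.46 to -0.36). It differed from that of Slco1a1 by 0.01, with an interval of -0.06 to 0.07.
Abcb4 (chromosome 5, 8893717 to 8959231) encodes MDR2, which moves phosphatidylcholine to the outer face of the canalicular membrane. It had 1819 reads from MHs and 4039 from SHs, or 107 and 95.4 RPM, with log2 ratio -0.17 (-0.25 to -0.09). Its ratio differed from that of Abcb11 by -0.03, with an interval of -0.11 to 0.06. Of the 50-base words of Abcb4, 2.87% occurred in other transcripts, the largest share among the 10 genes, and of all other genes its paralog Abcb1a held the most of them.

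Abcg5 and Abcg8 encode the subunits of the sterol exporter, which works only as a heterodimer, and their start sites face away from each other across the short stretch printed above. Abcg5 (chromosome 17, 84658234 to 84683011) had 1000 reads from MHs and 2438 from SHs, or 58.9 and 57.6 RPM. Its log2 ratio was -0.03, and the interval, -0.14 to 0.07, included 0. Abcg8 (chromosome 17, 84676302 to 84700333) had 1465 reads from MHs and 3362 from SHs, or 86.3 and 79.4 RPM, with log2 ratio -0.12 (-0.21 to -0.03). There were 0.683 reads of Abcg5 per read of Abcg8 in MHs (exact interval 0.629 to 0.740) and 0.725 in SHs (0.688 to 0.764). The difference between their log2 ratios, 0.09, had an interval of -0.05 to 0.23 that included 0, and the levels per length were 21.7 and 23.0 RPKM in MHs. An alternative start of Abcg8 lies inside Abcg5, and the exons of both genes overlap by 82 bases on opposite strands, 3.02% of the exon bases of Abcg5. Whether the counting used strand is not given in the sources used here, so reads in these bases could belong to either gene.
Atp8b1 (chromosome 18, 64528967 to 64661267) encodes a phospholipid flippase that protects the canalicular membrane. It had 1153 reads from MHs and 2646 from SHs, or 67.9 and 62.5 RPM, with log2 ratio -0.12 (-0.22 to -0.02). Tmem30a encodes the subunit that the flippase needs to leave the endoplasmic reticulum, and it had a log2 ratio of -0.17 (-0.26 to -0.09). The ratio of reads of Atp8b1 to Tmem30a was 0.681 in MHs and 0.707 in SHs, and the difference of their log2 ratios, 0.05, had an interval of -0.08 to 0.18.

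**Figure D3:**
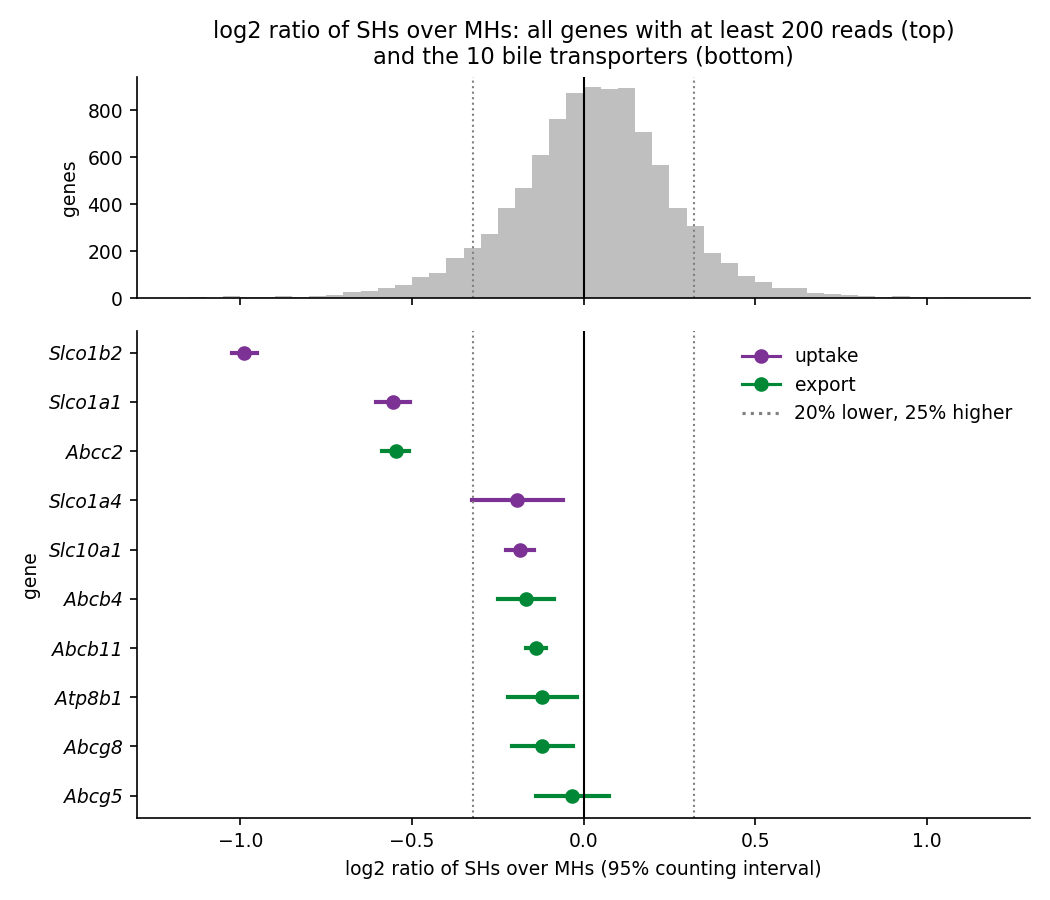
Histogram of the log2 ratio of SHs over MHs for genes with at least 200 reads (top, number of genes; 72 genes beyond the plotted range are not drawn) and the ratio of each of the 10 transporters with its 95% counting interval (bottom). All 10 points lie left of 0, from -0.99 for Slco1b2 to -0.03 for Abcg5, and 3 lie beyond the dotted line of a 20% lower level.

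Set beside all genes, the count of lower levels was larger among the transporters. The log2 ratio was under 0 for 10 of 10 members, against 48.0% of the 15521 genes with at least 10 reads and 44.2% of those with at least 200 reads, the group in which all members fell. The interval lay wholly under 0 for 9 of 10 members, all but Abcg5, against 15.5% and 16.9% of the same genes. It lay wholly over 0 for 0 members, against 16.8% and 23.2%. Genes with more reads have narrower intervals, and the members had 2177 to 45001 reads over both libraries. A level at least 20% lower in SHs (a fold as large as a 25% higher level) was found for 3 of 10 members, Slco1b2, Slco1a1 and Abcc2, against 18.7% of genes with at least 10 reads and 8.00% of those with at least 200. A level at least 25% higher was found for 0 of 10, against 16.5% and 8.89%. At 1.5-fold, 1 member was lower, Slco1b2, against 2.10% of genes with at least 200 reads. At 2-fold, 0 were, against 0.812%, and Slco1b2 lay just inside that limit at 1.99-fold. With 10 chosen genes and no replicate, these counts describe the 2 libraries and carry no test.
The median log2 ratio was -0.18 over the 10 members, -0.37 over the 4 uptake genes and -0.13 over the 6 export genes, and 0.02 over all genes with at least 10 reads. The quartiles of genes with at least 200 reads were -0.12 and 0.17, and every member but Abcg5 lay below the lower of them. For Slco1a4, Abcb11, Abcb4, Abcg8 and Atp8b1, however, the counting interval included that lower quartile. Summed, the uptake genes made up 0.140% of MH reads (exact interval 0.138% to 0.142%) and 0.0931% in SHs (0.0922% to 0.0940%), a log2 ratio of -0.59 (-0.61 to -0.56). Without Slco1b2, the sum of the other 3 uptake genes had a log2 ratio of -0.32 (-0.35 to -0.29). The export genes made up 0.162% of MH reads and 0.137% of SH reads, a log2 ratio of -0.25 (-0.27 to -0.23), and without Abcc2 the other 5 had one of -0.13 (-0.16 to -0.11). Fewer cells with a gene's RNA and less of it per cell cannot be told apart in such bulk libraries.

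The other carriers of the same membranes did not all have lower levels in SHs. Among 4 other sinusoidal uptake genes, 1 was at least 20% lower and 0 were at least 25% higher. Over all genes with at least 10 reads, the shares were 18.7% and 16.5%. They were 8.00% and 8.89% over those with at least 200 reads, which all 4 genes reached. Slco2b1, another organic anion carrier, had 174 RPM for MHs against 185 for SHs, log2 ratio 0.09 (0.03 to 0.15), and Slc22a7, which encodes OAT2, had one of 0.18 (0.06 to 0.29). Slc27a5, the bile acid CoA ligase, had a log2 ratio of -0.16 (-0.18 to -0.13). The 4 genes together had a log2 ratio of -0.17 (-0.19 to -0.15). Slc27a5 held most reads of that sum, 20168 of 27635 in MHs and 45111 of 61438 in SHs, so the sum mostly describes the ligase gene.
Some of the listed sinusoidal efflux genes return bile salts and conjugates to the blood, and the list is not limited to them. Of the 7, 6 reached 10 reads, with -0.02 as the median ratio (log2), which was 0.02 over those with at least 200 reads. Abcc3, the sinusoidal counterpart of Abcc2, had 206 RPM for MHs against 210 for SHs, log2 ratio 0.02 (-0.03 to 0.08). Abcc6 had 201 and 215 RPM, with log2 ratio 0.10 (0.04 to 0.15). The 2 genes at least 20% lower, Abcc1 and Abcc4, had only 10 and 13 reads in MHs and 1 and 7 in SHs. Of all genes with at least 10 reads, 18.7% were lower by that much. Slc51a had 0 reads in either library, which allows up to 0.177 RPM in MHs and 0.0708 in SHs, 3 reads each.
On the canalicular side, 3 of 8 further genes were at least 20% lower in SHs, 0 were at least 25% higher, against 18.7% and 16.5% of all genes with at least 10 reads. The median log2 ratio was -0.20, and -0.09 over the genes with at least 200 reads, which leave out Abcb1a and Abcb1b. Abcg2, which encodes the exporter BCRP, had 70.2 RPM in MHs and 47.9 in SHs. Its log2 ratio of -0.55 (-0.65 to -0.45) differed from that of Abcc2 by -0.00, with an interval of -0.11 to 0.11. The MDR1 genes Abcb1a and Abcb1b were also among the 3, with 40 and 22 reads in MHs and 62 and 25 in SHs. Atp7b, the copper exporter, had the highest log2 ratio, 0.28 (0.15 to 0.41).

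**Figure D4:**
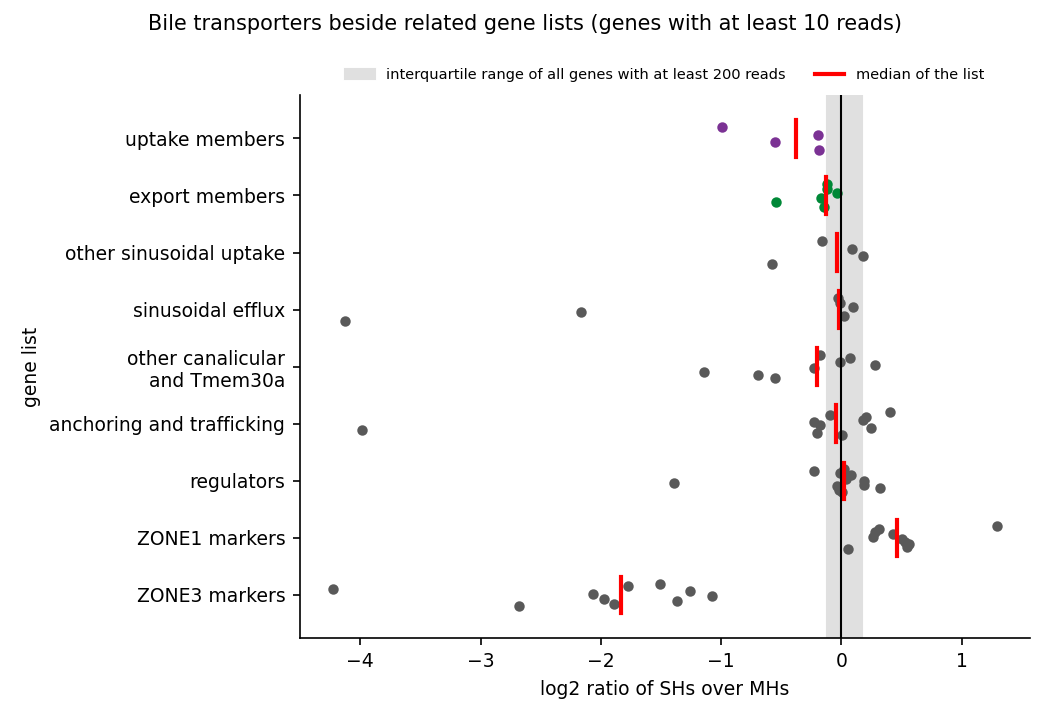
log2 ratio of SHs over MHs (horizontal axis) for the genes with at least 10 reads in the transporter groups, in related gene lists and in zonal marker lists, with the median of each list in red and the interquartile range of all genes with at least 200 reads in grey. The uptake members have a median of -0.37. The medians of all transporter groups and related lists lie between those of the ZONE3 markers, -1.83, and the ZONE1 markers, 0.47.

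Genes that bring transporters to the canaliculus or hold them there had ratios on both sides of 0. Of 10 anchoring and trafficking genes, 1 was at least 20% lower and 1 at least 25% higher. The median was -0.04, and it turned to 0.10 over the genes with at least 200 reads, which leave out Ezr and Msn. Rdx encodes radixin, which ties MRP2 to actin at the canaliculus, and it had 136 RPM for MHs against 137 for SHs, log2 ratio 0.01 (-0.06 to 0.08). Slc9a3r1, an anchoring protein with PDZ domains, had a log2 ratio of 0.25 (0.20 to 0.30). The lower gene was Msn, which is abundant in endothelial and blood cells, with 28 reads from MHs and 4 from SHs.
The regulators of these carriers had a median log2 ratio of 0.02 over 13 genes. Of these, 1 was at least 20% lower and 0 were at least 25% higher. The shares were 18.7% and 16.5% of all genes with at least 10 reads. Among those with at least 200 reads, which all 13 regulators reached, they were 8.00% and 8.89%. The lower regulator was Nr1i3, which encodes the xenobiotic receptor CAR, with 39.99 RPM for MHs against 15.2 for SHs, log2 ratio -1.39 (-1.55 to -1.24). Nr1h4 encodes FXR, the bile acid receptor that induces Abcb11, and it had 83.8 RPM for MHs against 84.3 for SHs, log2 ratio 0.01 (-0.08 to 0.10). Nr0b2, which FXR induces in turn, had 79.9 and 78.9 RPM, and its interval, -0.11 to 0.07, also included 0. Hnf4a had a log2 ratio of 0.04 (0.00 to 0.07). Nr5a2 had the highest ratio, 0.32 (0.20 to 0.44), just short of 25% higher, and it passed that size at 0.35 once the totals excluded the 10 genes of highest count.

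Other features of the 2 libraries were set beside these ratios. Depth was 16979136 counted reads for MHs and 42356444 for SHs. The 8 hepatocyte markers had log2 ratios of -0.19 to 0.27 with a median of 0.03. The 10 markers of pericentral (ZONE3) hepatocytes were all at least 20% lower in SHs, from -4.23 to -1.08 around a median of -1.83, and the 10 periportal (ZONE1) markers had a median of 0.47 and a range of 0.06 to 1.29. The ratio of Slco1b2, -0.99, was thus above that of every ZONE3 marker of the list and below that of every ZONE1 marker. The nearest ZONE3 marker, Axin2, had a ratio of -1.08 with an interval of -1.65 to -0.50, which held that of Slco1b2. The other 9 members lay between the same limits, as did the median of all genes with at least 10 reads, 0.02. Macrophage, endothelial and stellate cell markers were lower in SHs in 27 of the 27 genes with at least 10 reads, of 30 listed. Their summed level was 130 RPM in MHs and 8.00 in SHs, with single genes between 0.0589 and 19.9 RPM in MHs and between 0 and 2.81 in SHs, where Lyve1 and Marco were at 0. Of 8 cholangiocyte markers, 4 had at least 10 reads, with a median of 0.10, and the defining markers Krt19 and Krt7 had 1 read in each library. The part of these differences in the transporter ratios was not tested, and cell preparation, sort and condition cannot be told apart with 1 library each.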

How the data were processed

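RNA-seq was performed by the authors on 1 library of MHs and 1 of SHs. The authors deposited whole read counts per gene symbol without normalization. Per the methods, reads were trimmed and aligned to mm10 in CLC Genomics Workbench and expressed as RPKM. The program, annotation and strand setting behind the deposited counts are not given in the sources used here, so reads shared by paralogs or overlapping genes are uncertain. No per-sample column was left unused.

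Counts were scaled to the 16979136 counted reads of MHs and the 42356444 of SHs, in which 3 reads equal 0.177 and 0.0708 RPM. Ratios, Clopper-Pearson intervals and Woolf intervals were computed in Python 3.11.15 (scipy 1.17.1, pandas 2.3.3, numpy 2.4.6, figures with matplotlib 3.10.9). The ratios and Clopper-Pearson intervals were checked on simulated counts that held counting error only. The Woolf intervals were not checked in this way. With 1 library per group, no test was possible. The call was a level at least 20% lower or 25% higher in SHs, set beside all genes whose summed reads reached 10 or 200.

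Exon lengths, positions and overlaps came from GENCODE M21 on mm10, in which all members were found by symbol, and shared words of 50 bases from its transcripts. Adgre1 was matched by its older symbol Emr1. Some genes of the lists are counted in them but not reported here by name, and 1 searched motif is not reported here.

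The members, the marker and pathway lists and the compared pairs were chosen with earlier results of these data known, and every pair but Abcg5 and Abcg8 after its values were seen. The named genes were the members, the genes of the lists, and the 3 lowest, 3 highest and 3 nearest ratios to the members' median among other Slc, Slco and Abc genes with at least 200 reads. Slco1c1, Slco1a5 and Slco1a6 were added for their position after their values were seen. Alternatives were scaling by TMM (edgeR 4.0.16, R 4.3.3), by DESeq2 1.42.0 size factors or excluding the 10 genes of highest count, adding 2 reads, changing read minimums and folds, no Slco members and transcript length. Scaling by protein-coding genes was added after seeing the data.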

Additional observations from a re-analysis of the deposited data

How the results depend on the processing

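No paired analysis was possible because MHs and SHs had 1 library each, and leaving out a replicate was not possible for the same reason. All 10 members kept a ratio under 0 under TMM, DESeq2's size factors, a total excluding the 10 genes of highest count and, chosen after seeing the data, the total of protein-coding genes, which shift every gene alike by 0.009 to 0.032 on the log2 scale. The number of members with an interval wholly under 0 was 9 under the first 2, 8 with protein-coding genes, where Atp8b1 joined Abcg5, and 7 excluding the 10 genes of highest count, where Abcg8 did too. The median over the members was -0.17 or -0.15 under these scalings. The count at least 20% lower was 3 under each scaling, with 2 added reads and with other read minimums, but 1 at 1.5-fold and 0 at 2-fold, by construction. The summed uptake genes had a log2 ratio of -0.55 excluding the 10 genes of highest count, and the summed export genes one of -0.22 without them and -0.22 by protein-coding genes. Of the 10 single ratios, 1 moved beyond its interval, that of Abcb11 to -0.11 excluding the 10 genes of highest count. By the longest transcript, 16 of 20 levels per length moved beyond their counting interval. Slc10a1 then made up 46.5% of the uptake level in MHs and 57.5% in SHs, and Slco1b2 36.8% and 26.0%. Over genes with at least 200 reads, the medians of the efflux and the anchoring lists turned from -0.02 and -0.04 to 0.02 and 0.10. The counting error of Slco1a4, with the fewest reads, limits its ratio most.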

Other observations

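The bile transporters belong to large carrier families. Outside the 10 members, 193 genes named Slc, Slco or Abc had at least 200 reads. Their median log2 ratio was -0.04, with quartiles of -0.19 and 0.07. Of these genes, 118 had a ratio under 0, against 44.2% of all genes with at least 200 reads. Of the 193, 23 were lower in SHs by at least 20% and 8 higher by at least 25%, against 8.00% and 8.89% of all such genes. The lowest ratios were those of Slc1a2, a glutamate carrier of pericentral hepatocytes, with 29.8 RPM in MHs and 1.58 in SHs, then Slc16a12 with 28.6 and 14.4 RPM, and Slc35d1 with 28.0 and 17.4 RPM. The log2 ratio of Slc16a12, -0.99 (95% interval -1.16 to -0.81), had an interval that held the ratio of Slco1b2. The highest ratios were 0.94 (0.58 to 1.33) for Slc1a6, 0.79 (0.42 to 1.19) for Slc2a5, a fructose carrier, and 0.47 (0.12 to 0.85) for Slc43a1, all from under 100 reads in MHs. The ratios nearest to the median of the members were those of Slc6a12, Slc35e3 and Slc31a1, at -0.18, -0.17 and -0.17. With 2 libraries, such likeness rests on 1 ratio per gene.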
